A study of Caenorhabditis elegans with 2 samples.

Results

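The summits described here are the 535 positions, of the 2470 in the pooled list, at which GRH-1 was mapped in intergenic DNA away from promoters. A summit is the base of greatest signal within a peak. It was counted when it lay on chromosomes I to V or X, outside every annotated gene of any kind, and outside every promoter window, which runs from 1000 bp before to 200 bp after a protein-coding transcript's 5′ end. The rule used position only, so signal, agreement between replicates and sequence could be compared with those of the 1337 summits in promoter windows, the 399 in introns and the 199 elsewhere in genes. The data are chromatin immunoprecipitation followed by sequencing (ChIP-seq) of whole Caenorhabditis elegans L1 larvae of strain RW12208, with 2 biological replicates of 1 group. In this strain CRISPR had inserted a tag of TY1, EGFP and 3xFLAG into grh-1 on chromosome I, so every animal carried the fusion, and the larvae were 6 h old, synchronised by bleaching and starvation. The description names an anti-GFP antibody, the antibody field names grh-1, chromatin was sheared by sonication, and whole animals mix all tissues, so the cells in which a position was bound are not known. The peaks carry a signal value, a score by the authors of unstated scale. The number of reads is unknown, so the Wilson 95% intervals given for shares cover counting error over peaks only.

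Grainyhead proteins are transcription factors known from flies, mammals and nematodes for the formation and repair of epidermis and other epithelia. They bind as dimers to a palindrome, AACCGGTT, and to close variants of it. Enhancers, the regulatory elements that act at a distance from the promoter, lie closer to their genes in this compact genome than in mammals. An intergenic summit is one kind of position where such an element could lie, and its target gene was not measured.

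The palindrome is shown first at intergenic summits because it is the sequence Grainyhead proteins are known to bind. Each line gives the gene with the nearest 5′ end and then 101 bases centred on the summit, from the forward strand of the reference genome WBcel235 (ce11), with the palindrome in capitals. The first 4 are among the 6 highest-scoring with it, and the nhr-258, lec-3, alr-1 and ZC513.3 sequences come from lower in the list.
ekl-5 chrX:13920526-13920626: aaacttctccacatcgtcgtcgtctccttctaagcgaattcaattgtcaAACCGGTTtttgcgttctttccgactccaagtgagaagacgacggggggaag
M163.1 chrX:14508188-14508288: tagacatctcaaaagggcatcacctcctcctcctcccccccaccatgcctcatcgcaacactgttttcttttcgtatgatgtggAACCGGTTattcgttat
apl-1 chrX:5119464-5119564: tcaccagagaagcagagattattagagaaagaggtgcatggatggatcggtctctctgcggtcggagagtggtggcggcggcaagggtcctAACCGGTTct
F57G12.2 chrX:12164187-12164287: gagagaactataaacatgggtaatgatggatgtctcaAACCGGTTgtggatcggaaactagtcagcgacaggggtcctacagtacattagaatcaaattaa
nhr-258 chrIV:8042131-8042231: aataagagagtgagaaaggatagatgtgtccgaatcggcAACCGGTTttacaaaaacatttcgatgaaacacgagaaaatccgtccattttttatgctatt
lec-3 chrII:9988771-9988871: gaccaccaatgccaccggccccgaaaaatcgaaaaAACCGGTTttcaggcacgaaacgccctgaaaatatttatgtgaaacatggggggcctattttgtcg
alr-1 chrX:11137126-11137226: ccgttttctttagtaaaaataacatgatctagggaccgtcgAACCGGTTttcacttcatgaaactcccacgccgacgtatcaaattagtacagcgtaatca
ZC513.3 chrV:8041492-8041592: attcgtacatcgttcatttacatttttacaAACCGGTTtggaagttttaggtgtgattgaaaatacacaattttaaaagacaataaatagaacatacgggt
In the ekl-5, F57G12.2, nhr-258, lec-3, alr-1 and ZC513.3 sequences the palindrome sits near the middle of the window, and at M163.1 and apl-1 it sits towards one side.

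A second kind of sequence was the 8-mer AGACGCAG, whose complement reads CTGCGTCT, together with runs of GAGAGA, whose complement reads TCTCTC. It is shown at 3 of the 4 highest-scoring intergenic summits with the 8-mer, as 201 bases of the forward strand of ce11. The nhr-88 sequence, from the intergenic summit ranked 2 by signal, has the repeats without the 8-mer. Capitals mark AGACGCAG, GAGAGA and the E-box CACGTG on either strand.
T04C4.3 chrIV:2219516-2219716: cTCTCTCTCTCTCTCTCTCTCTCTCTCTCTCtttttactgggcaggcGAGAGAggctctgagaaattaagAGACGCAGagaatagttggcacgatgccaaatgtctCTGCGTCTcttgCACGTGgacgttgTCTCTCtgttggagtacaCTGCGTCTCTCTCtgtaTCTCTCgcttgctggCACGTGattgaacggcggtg
cpt-1 chrII:12798865-12799065: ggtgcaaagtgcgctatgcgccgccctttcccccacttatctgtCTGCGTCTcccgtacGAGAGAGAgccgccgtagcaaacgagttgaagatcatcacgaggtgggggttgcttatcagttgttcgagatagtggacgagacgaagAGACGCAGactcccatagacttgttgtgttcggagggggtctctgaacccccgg
Y22D7AR.6 chrIII:1681098-1681298: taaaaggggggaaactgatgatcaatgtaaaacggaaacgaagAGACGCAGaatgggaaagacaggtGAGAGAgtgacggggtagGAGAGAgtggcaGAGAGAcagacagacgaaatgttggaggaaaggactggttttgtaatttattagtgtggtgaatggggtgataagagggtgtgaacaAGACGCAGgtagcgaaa
nhr-88 chrII:2973977-2974177: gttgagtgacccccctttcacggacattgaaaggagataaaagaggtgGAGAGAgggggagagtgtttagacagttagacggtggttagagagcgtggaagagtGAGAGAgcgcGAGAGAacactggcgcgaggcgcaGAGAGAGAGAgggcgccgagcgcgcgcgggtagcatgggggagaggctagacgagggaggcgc
The T04C4.3 window holds AGACGCAG on both strands, the cpt-1 window holds it on both strands to either side of the summit, and in the Y22D7AR.6 window both copies read the same way with GAGAGA between them.

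Intergenic summits were found in both replicates less often than promoter summits. A peak of both replicates' own thresholded lists overlapped 256 of the 535 intergenic summits' peaks (47.9%, 43.6 to 52.1), against 56.9% of promoter peaks (odds ratio 0.695, Fisher's exact test, two-sided, with p adjusted over 15 such tests by the method of Benjamini and Hochberg, p = 0.00197) and 41.9% of intronic peaks (adjusted exact p = 0.182). Over all pooled peaks the share was 50.2%. Replicate 1 alone supported 90 and replicate 2 alone 53. Neither list overlapped 136 (25.4%), against 18.5% of promoter peaks (odds ratio 1.497, adjusted exact p = 0.00363) and 23.7% of all pooled peaks. Support went with signal: the median pooled signal value was 221 for the 256 and 85.3 for the 136, of which the highest reached 133. A peak overlapped in the unthresholded ranked lists of both replicates at 528 intergenic summits, where the Spearman correlation between replicate 1 and replicate 2 was 0.812. That correlation is across peaks, which share the 2 libraries and are no replicates of each other, and a pair of neighbouring summits can share 1 replicate peak. The value was higher in replicate 1 at 389 of the 528, with a median ratio of 1.20 of replicate 1 to replicate 2, although each score belongs to its own list.

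**Figure D1:**
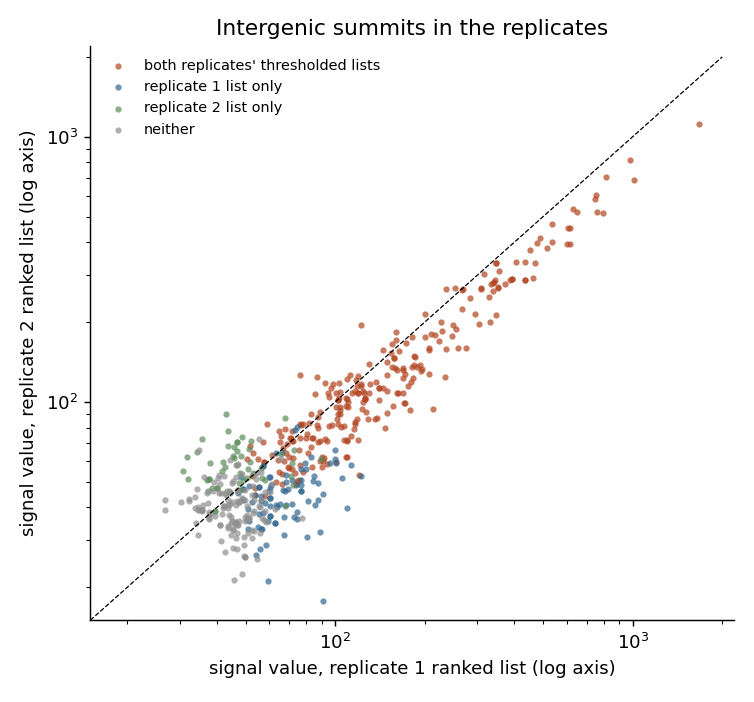
Signal value in the ranked list of replicate 1 (x, log axis) and replicate 2 (y, log axis) for the intergenic summits with a peak in both, coloured by which thresholded lists held them; the dashed line marks equal values. The 256 summits in both lists fill the upper right, the 136 in neither lie at low values, and most points lie under the line.

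The intergenic summits spanned nearly the whole range of signal. Their median signal value was 122.7, with a middle 50% from 90.5 to 217, against medians of 142 at promoter and 114 at intronic summits. Above the median of the pooled list, which 50% of all peaks exceed by construction, were 251 (46.9%), against 56.6% of promoter summits (odds ratio 0.677, adjusted exact p = 0.00110) and 43.9% of intronic summits (adjusted exact p = 0.582). Among the 247 highest-scoring peaks were 55 intergenic summits (10.3%), against 11.1% of promoter summits (odds ratio 0.914, adjusted exact p = 0.757), and among the highest 15 and 100 peaks there were 6 and 25, where intergenic summits made up 21.7% of the whole list. Neighbouring peaks are not independent, which makes these p-values too small.

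The first-ranked peak of the pooled list was an intergenic one on chromosome I, at 2830.4, with 1667 in replicate 1 and 1119 in replicate 2. Its summit at 1273955 lay 5800 bp upstream of grh-1, the gene of the tagged protein, beyond Y48G8AR.8. A lower intergenic summit 1182 bp upstream of grh-1 scored 88.0, with 59.5 in replicate 1 and 35.6 in replicate 2, and it passed the threshold in replicate 1 only. The next intergenic summit, ranked 7 in the pooled list, was at 2974077 on chromosome II, 2562 bp upstream of the nuclear hormone receptor gene nhr-88, at 1815, with 979.8 in replicate 1 and 817 in replicate 2. The 12 highest-scoring intergenic summits ranged down to 1018 and were all in both replicates' lists, and each scored higher in replicate 1. Of the 12, 6 held GAGAGA and 2 held AGACGCAG, beside 41.1% and 14.2% of all 535. A Grainyhead-type site, which 15.9% of all 535 held, lay at 1 of the 12, the ekl-5 summit printed above. That summit scored 1174, with 628 in replicate 1 and 532 in replicate 2. It lay 3405 bp upstream of ekl-5 and 674 bp from the microRNA gene cel-mir-47. On the other chromosomes the highest were near K08F11.1 on chromosome IV, 452 bp downstream of its 5′ end (1691; 1014 in replicate 1 and 688 in replicate 2), F58D12.3 on chromosome V (1339; 747 in replicate 1 and 581 in replicate 2) and Y22D7AR.6 on chromosome III (908; 488 in replicate 1 and 415 in replicate 2). Others of the 12 lay near cpt-1, for a carnitine palmitoyltransferase (1158, 2513 bp upstream), and ins-13, for an insulin-like peptide (1018, 1284 bp downstream of its 5′ end).

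The Grainyhead palindrome was concentrated at intergenic summits relative to the sequence beside them. AACCGGTT lay within 100 bp of 28 of the 535 (5.23%, 3.65 to 7.46), against 2 of 1070 windows of the same width centred 500 bp away on both sides (0.187%). The odds ratio was 29.5, with p = 2.79e-11 in Fisher's exact test, two-sided and adjusted over 30 tests of 10 motifs in 3 comparisons. The flanks hold only those 2 sites, so the size is loosely fixed: the odds ratio was 51.4 in replicate 1's own list, 23.6 in replicate 2's, and 16.4 when sites up to 200 bp from a summit were counted. Promoter summits held it at 2.92% (odds ratio 1.84, adjusted exact p = 0.0422), intronic summits at 5.51% (odds ratio 0.946, adjusted exact p = 0.920), and all pooled peaks at 3.81%. The difference from promoter summits was not past the threshold with the conservative pooled list (odds ratio 1.68, unadjusted exact p = 0.0538) or with a promoter window of 2000 bp (1.51, p = 0.161). The variant AACTGGTT, which differs from the palindrome by 1 base in its centre, lay at 31 summits (5.79%), against 0.654% of flanks (odds ratio 9.34, adjusted exact p = 3.59e-09). The core ACCGGT, which every palindrome also holds, lay at 54 (10.1%), against 1.59% of flanks and 5.31% of promoter summits (odds ratio 2.00 against promoters, adjusted exact p = 0.00115). With any of these types there were 85 summits (15.9%, 13.0 to 19.2), against 9.20% of promoter summits (odds ratio 1.86, adjusted exact p = 0.000903), 14.5% of intronic summits and 11.7% of all pooled peaks. The other 450 intergenic summits held none of them within 100 bp.

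Of the 10 motifs GAGAGA was the most common. It lay at 220 summits (41.1%), against 11.0% of flanks and 32.5% of promoter summits (odds ratios 5.63 and 1.45, adjusted exact p = 1.77e-40 and 0.00160), and 39.6% of intronic summits held it. AGACGCAG lay at 76 (14.2%, 11.5 to 17.4), against 1.495% of flanks. Its odds ratio against flanks was 10.9 (adjusted exact p = 2.05e-22), and its share differed from that of promoter summits (12.5%) and intronic summits (10.5%) by less than the tests could call (adjusted exact p = 0.499 and 0.196). CACGTG, the E-box recognised by many basic helix-loop-helix factors, lay at 71 (13.3%), against 2.99% of flanks and 9.50% of promoter summits (odds ratios 4.96 and 1.46, adjusted exact p = 2.05e-13 and 0.0422), while intronic summits held it at 14.8%. The nuclear receptor site AGGTCA was also above its flanks (10.1%, against 6.26%; adjusted exact p = 0.0241). The GATA-type site TGATAA was not above its flanks (17.8%, against 18.8%), yet it was more frequent than at promoter summits (12.04%, odds ratio 1.58, adjusted exact p = 0.00514), and intronic summits held it at 17.3%. The AP-1-type site TGANTCA, in which N is any base, passed the test in none of the 3 comparisons. Lower at the summits was the A and T run TTTAAAAA (3.55%, against 19.8% of flanks), with an odds ratio of 0.149 (adjusted exact p = 1.16e-20). It was also the rarer 8-mer of lowest p among all 31812 8-mers in the same windows (adjusted exact p = 7.36e-18). The 10 motifs were chosen with earlier results of these data known, so its p-value is not an independent test. Base composition moved with these results: the median GC content of a window was 42.3% at the intergenic summits, 32.8% in their flanks and 42.3% at promoter summits, and its part in the motif shares was not tested.

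**Figure D2:**
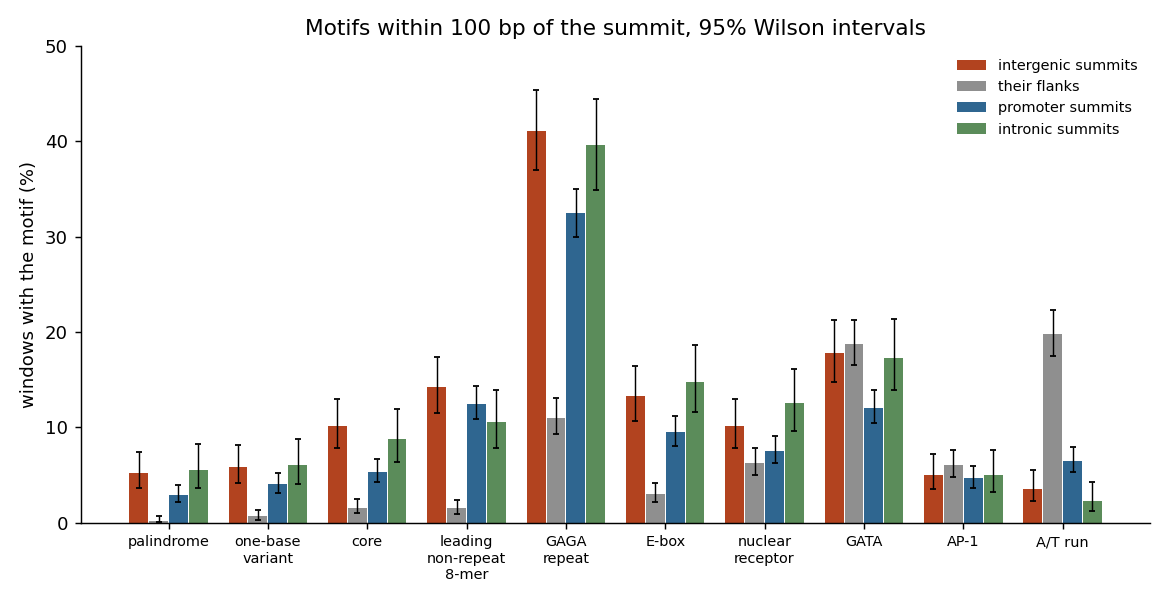
Share of 201-bp windows (y, %) with each of 10 motifs (x) at the intergenic summits, in their flanks 500 bp away, and at promoter and intronic summits; error bars are 95% Wilson intervals over windows. The palindrome (5.23%) and the leading non-repeat 8-mer (14.2%) stand above their flanks (0.187% and 1.495%), and the A/T run stands below its own (3.55%, against 19.8%).

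GAGAGA lay at 6 of the 28 summits with the palindrome and at 59 of the 76 with AGACGCAG (77.6%), beside 41.1% of all 535. None of the 28 held AGACGCAG, which lay at 14.2% of all 535. Neither a Grainyhead type nor AGACGCAG, GAGAGA or CACGTG was present at 196 summits (36.6%). Palindromes lay near the summit. Of the 28 sites, 18 (64.3%) had their centre within 25 bp, against 29 of 87 AGACGCAG sites (33.3%), where a window of 201 bp filled evenly would put about 25% of sites. These overlaps and positions are counts without a test.

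Within the intergenic class, summits with the palindrome had higher signal. Of the 28, 22 (78.6%) exceeded the median of the pooled list, against 229 of the 507 without it (45.2%; odds ratio 4.45, Fisher's exact test, two-sided, adjusted over 10 motifs, p = 0.00687), and the medians were 169 and 119.1. AGACGCAG went the same way (48 of 76, 63.2%, against 44.2% without it; odds ratio 2.16, adjusted exact p = 0.0138), while GAGAGA did not pass (adjusted exact p = 0.0694). After the ekl-5 summit, the highest with the palindrome were near M163.1 (573; 308 in replicate 1 and 266 in replicate 2), F33E2.10 (502; 332 in replicate 1 and 199.6 in replicate 2) and apl-1, for a homologue of the amyloid precursor protein (426; 227 in replicate 1 and 200.1 in replicate 2). Those near F57G12.2 (337; 172 in replicate 1 and 167 in replicate 2) and F29C6.1 (332; 206 in replicate 1 and 127 in replicate 2) followed, and all of these were in both replicates' lists. With the 535 summits ranked by signal and cut into 4 groups of 133 or 134, the palindrome lay at 12, 11, 2 and 3 summits from the highest group to the lowest, and AGACGCAG at 27, 25, 13 and 11. TGATAA ran the other way, with 15, 25, 21 and 34, but its test did not pass (adjusted exact p = 0.104). The median signal value of summits with the palindrome was 169 in intergenic DNA, 263 in promoter windows and 355 in introns, and the difference was not tested.

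**Figure D3:**
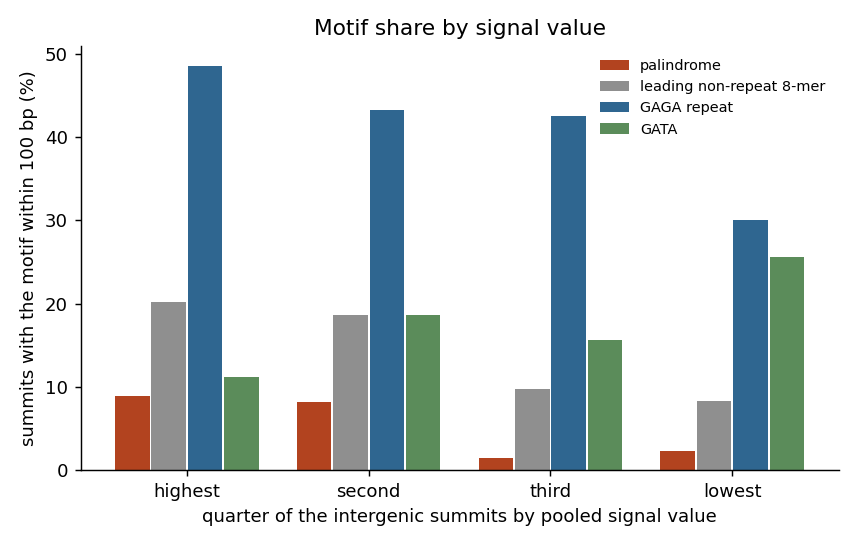
Share of intergenic summits with a motif within 100 bp (y, %) in 4 groups of equal size by pooled signal value (x, highest group at the left), for the palindrome, the leading non-repeat 8-mer, the GAGA repeat and the GATA-type site. The palindrome lay at 12 and 11 summits of the upper groups and at 2 and 3 of the lower ones.

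All 8-mers were also counted in the same windows. AGACGCAG is among the 10 motifs because it led such a search over all summits of these data, so its p-values above are not independent of the search. Of 31812 8-mers, each counted with its complement, 252 (0.792%) were more frequent at the intergenic summits than in the flanks and 202 (0.635%) rarer, by Fisher's exact test at an adjusted p under 0.05. AGAGAGAG led by p (14.4%, against 1.31% of flanks, an odds ratio of 12.7 with adjusted exact p = 9.07e-21), and AGACGCAG was the first that is not a plain repeat (rank 3). AACCGGTT ranked 24 (adjusted exact p = 7.40e-09). Its shifted form AAACCGGT ranked 26, at 36 summits against 7 flank windows, and AAACCAGT, the matching form of the 1-base variant, ranked 38. With the replicates' own lists, which hold fewer intergenic summits (352 in replicate 1 and 312 in replicate 2), 272 and 227 8-mers were called.

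Some of the highest intergenic summits lay on copies of the same sequence, which was noticed when their sequences were read. A window of 201 bases was called repeated when at least 50% of its 20-base words had another copy in the genome, on either strand. That held for 41 of the 535 (7.66%, 5.70 to 10.2), against 8.60% of their flanks, 3.89% of promoter and 7.77% of intronic summits, and for 5 of the 12 highest. Among the latter was the summit near K08F11.1 at 1691, the highest of chromosome IV, with another copy for 73.1% of its words. It shared words with the intergenic summit near Y54G2A.19 (193). None of the 41 held a Grainyhead-type site, which lay at 15.9% of all 535, and 21 were in both replicates' lists. The largest set of summits linked by at least 10 common words had 5 members, near K07D4.2 (1360.3), C46C2.7 (1058), zip-11 (934), Y116A8A.150 (626) and ari-1.4 (605). The next had 4, of which 2 lay near K08F11.1 (1279 and 748), another near K08D10.11 (1007) and another near F40E3.3 (1079). In each of these 9 the value of replicate 1 was higher, from 339.8 to 761, against 261 to 605 in replicate 2. The sequences are printed in a common direction, 201 bases of ce11 each, with capitals for bases that another summit of the same set shares in runs of at least 20. The first set is given by 4 of its summits.
K07D4.2 chrII:4047972-4048172 (forward strand): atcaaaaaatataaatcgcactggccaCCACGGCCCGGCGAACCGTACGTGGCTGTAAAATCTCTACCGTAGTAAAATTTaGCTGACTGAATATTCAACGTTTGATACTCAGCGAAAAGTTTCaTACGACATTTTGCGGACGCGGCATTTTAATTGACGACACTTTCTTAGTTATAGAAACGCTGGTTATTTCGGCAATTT
C46C2.7 chrIV:9196305-9196505 (reverse strand): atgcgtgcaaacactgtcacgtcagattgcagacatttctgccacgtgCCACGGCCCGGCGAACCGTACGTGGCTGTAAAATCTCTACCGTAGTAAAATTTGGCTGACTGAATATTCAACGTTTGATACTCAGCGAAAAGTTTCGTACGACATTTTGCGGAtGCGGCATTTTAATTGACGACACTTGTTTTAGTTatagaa
zip-11 chrIV:3313416-3313616 (reverse strand): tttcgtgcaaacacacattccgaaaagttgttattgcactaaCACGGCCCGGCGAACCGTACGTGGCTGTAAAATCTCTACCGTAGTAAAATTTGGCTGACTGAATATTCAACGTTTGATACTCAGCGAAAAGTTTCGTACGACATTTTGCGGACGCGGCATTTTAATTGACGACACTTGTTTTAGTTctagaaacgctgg
ari-1.4 chrIV:15530625-15530825 (reverse strand): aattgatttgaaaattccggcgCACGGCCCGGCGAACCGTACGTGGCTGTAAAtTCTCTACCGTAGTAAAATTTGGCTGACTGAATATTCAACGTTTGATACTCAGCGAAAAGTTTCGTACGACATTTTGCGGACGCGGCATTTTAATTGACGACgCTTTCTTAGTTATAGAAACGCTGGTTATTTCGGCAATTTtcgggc
The second set is given by 3 of its summits.
K08F11.1 chrIV:4727942-4728142 (forward strand): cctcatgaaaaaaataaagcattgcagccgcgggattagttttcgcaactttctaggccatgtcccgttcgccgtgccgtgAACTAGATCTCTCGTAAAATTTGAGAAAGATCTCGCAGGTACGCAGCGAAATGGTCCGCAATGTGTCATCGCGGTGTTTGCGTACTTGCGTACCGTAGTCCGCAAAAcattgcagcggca
K08D10.11 chrIV:4184865-4185065 (reverse strand): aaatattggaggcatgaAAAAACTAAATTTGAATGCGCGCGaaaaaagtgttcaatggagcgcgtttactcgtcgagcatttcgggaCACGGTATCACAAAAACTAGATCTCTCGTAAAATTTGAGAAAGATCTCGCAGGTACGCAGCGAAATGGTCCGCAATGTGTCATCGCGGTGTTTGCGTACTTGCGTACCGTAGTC
K08F11.1 chrIV:4720616-4720816 (reverse strand): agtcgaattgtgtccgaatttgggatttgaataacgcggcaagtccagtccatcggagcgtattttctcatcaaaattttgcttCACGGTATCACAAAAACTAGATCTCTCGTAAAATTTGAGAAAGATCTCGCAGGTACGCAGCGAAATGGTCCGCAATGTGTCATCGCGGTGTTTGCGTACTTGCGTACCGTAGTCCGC
Neither set holds AACCGGTT, and TCTCTC recurs in the second. The 37 words common to the first set stood complete at 7 places in the genome. These include its own 5 summits, and 1 of the other 2 places had a pooled summit within 200 bp (488). That place was intronic, and the nearest 5′ end was that of Y54E10BR.2. An intronic place with 36 of the words, nearest xpd-1, had no pooled summit within 200 bp, and neither did a place with 13 words, nearest gbas-1. The 61 words of the second set stood complete at its own 4 summits and at 1 further place, which had none. That place lay in a gene, and the nearest 5′ end was that of fbxa-136. Places with 42 and 40 of the words, nearest the 5′ ends of djr-1.2 and col-72, had pooled summits (330 and 286). A place with 41 words, nearest Y20F4.8, had none, and neither did places with 7 words or fewer. Whether reads were assigned uniquely among such copies is unknown, and its part in the height of these peaks was not tested. Without the pooled peaks in repeated windows, 494 intergenic summits remained, and the palindrome's odds ratio was 29.6 against flanks and 1.92 against promoter summits.

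**Figure D4:**
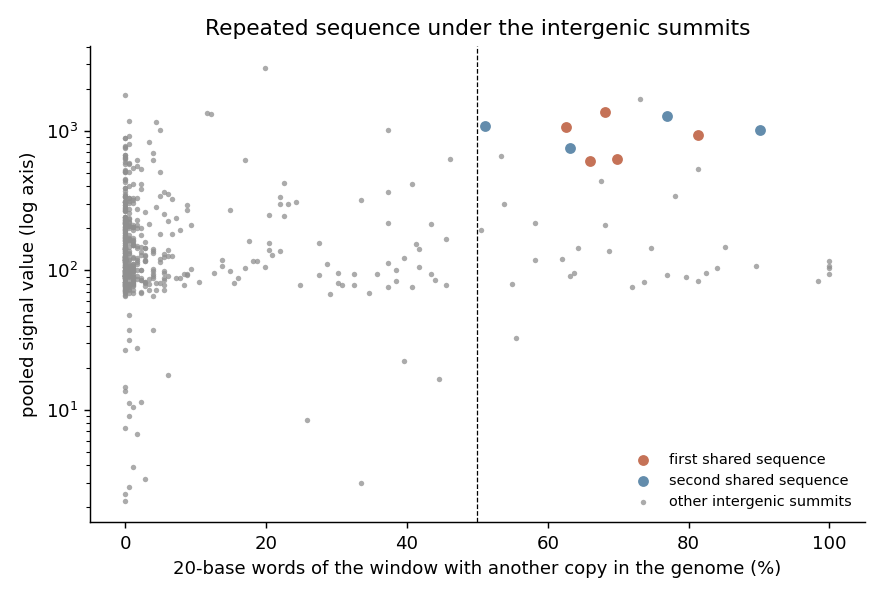
Pooled signal value (y, log axis) of the 535 intergenic summits against the share of 20-base words in their window with another copy in the genome (x, %); the dashed line marks 50%, and coloured points are the 5 and 4 summits that share a sequence. The coloured points lie at 605 and above, to the right of the line.

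Away from promoters by rule, the summits still lay within a few kilobases of genes. The median distance to the nearest protein-coding 5′ end was 2317 bp, with 200 summits from 1000 to 2000 bp away, 247 from 2000 to 5000 bp, 59 from 5000 to 10000 bp and 13 farther. The summit was upstream of that end at 380 (71.0%), and a 3′ end was nearer than any 5′ end at 263 (49.2%). For 532 summits, the gap between the flanking protein-coding genes had a median length of 5950.5 bp. These distances and sides were not counted over all bases that meet the rule, so the part of the rule in them was not tested. At the edge of the rule, intergenic summits near F53C3.6, pie-1, F35H8.4 and lrp-1, from 1010 to 1023 bp upstream, scored 90.8, 79.2, 217 and 87.4, and promoter summits near fbxb-58, nhr-34, ham-2 and nfki-1, from 1000 to 992 bp upstream, scored 353, 254.6, 341 and 23.4. The farthest were a pair at 10483 and 10687 of chromosome X, beyond the last gene of that end, 36450 and 36246 bp from Y73B3A.1, with values of 79.6 and 32.7. Both summits lay in repeated windows, with 54.9% and 55.5% of 20-base words having another copy in the genome. Both overlapped the same replicate peaks, of 35.8 in replicate 1 and 39.1 in replicate 2, below the threshold in each. The next was a summit 15801 bp upstream of Y67D8C.9 on chromosome IV, at 85.6, with 34.5 in replicate 1 and 39.2 in replicate 2, in neither thresholded list.

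**Figure D5:**
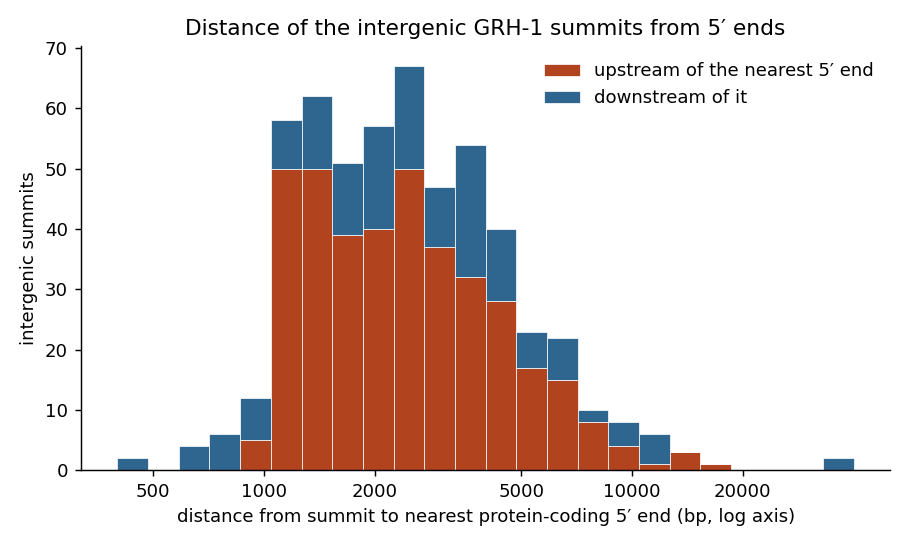
Number of intergenic summits (y) by distance to the nearest protein-coding 5′ end (x, bp, log axis), stacked by whether the summit lay upstream or downstream of that end. Upstream summits begin at 1000 bp, where the promoter window ends, and most of the 535 lie between 1000 and 5000 bp.

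The neighbouring genes took every arrangement. Both flanking genes were read in the same direction at 296 summits (55.3%, against 53.4% of the bases that meet the rule), away from each other at 169 (31.6%, against 31.1%) and towards each other at 67 (12.5%, against 15.3%). Summits numbered 28.5 per Mb of qualifying sequence on the X chromosome, which held 148 of them, and from 17.5 (chromosome V) to 29.0 (chromosome III) on the autosomes. X held 27.7% of the intergenic summits and 17.6% of the other pooled summits, beside 24.0% of the qualifying bases. Within 500 bp of a noncoding gene lay 154 summits (28.8%), of which 74 were beside an unclassified noncoding RNA gene, 19 a pseudogene, 18 a piRNA, 17 a snoRNA, 15 a tRNA, 6 an snRNA, 3 a microRNA and 2 a lincRNA gene. The share of the other pooled summits, or of all bases that meet the rule, near a noncoding gene was not counted. Only 19973 of the 46890 annotated genes are protein-coding, so these counts describe the summits without setting them apart.

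A few gaps between genes held several summits. The 535 were spread over 419 gaps, of which 333 held 1. The most, 6, lay in the 17601 bp between Y56A3A.33 and brp-1 on chromosome III, with pooled values from 75.7 to 170 (the highest 91.6 in replicate 1 and 61.4 in replicate 2). A gap of 9049 bp between R03E9.2 and mdl-1, for a Mad-like helix-loop-helix factor, on X held 5. Its highest scored 554, with 269 in replicate 1 and 266 in replicate 2, and the others 185, 180, 152 and 107. The third, 35563 bp between irld-18 and the DM-domain factor gene dmd-6 on chromosome IV, also held 5, led by 259 (139.9 in replicate 1 and 113 in replicate 2), and a summit of 13.6 lay beside that one. Low values stood beside higher ones: all 17 intergenic summits under 20 lay within 213 bp of a higher summit, the lowest of which scored 78.6.

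Assigned to the nearest 5′ end, the summits pointed to 449 of 19973 protein-coding genes (2.25%), an assignment by distance that does not show which gene is regulated. The lists below were read against that share and were not tested. Genes beside short gaps have little sequence that meets the rule, and gap lengths were not compared between lists. Of 21 epidermal transcription factor genes 5 were among them. The zinc finger gene blmp-1 had a summit at 590, 1687 bp upstream, with 309 in replicate 1 and 269 in replicate 2 and the core ACCGGT. The Schnurri homologue sma-9 had one at 331, with 186 in replicate 1 and 148 in replicate 2. The summits of ztf-6 (151), grh-1 (88.0) and nhr-25 (80.0), a Ftz-F1-type nuclear receptor of the epidermis, were lower, and each passed in 1 replicate only.

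Molting and larval timing genes numbered 5 of 34: blmp-1 and nhr-25 again, lrp-1, lin-41 and pan-1. The lipoprotein receptor gene lrp-1, needed for molting, had 3 summits, at 370, 99.96 and 87.4, the first with 206 in replicate 1 and 159 in replicate 2 and the middle one with a palindrome. The first summit passed in both replicates, the middle summit in neither and the last summit in replicate 1 only. The heterochronic gene lin-41 (129) and pan-1 (103.9) had lower ones, and each passed in 1 replicate only. For cuticle and epithelium the shares lay on both sides of the 2.25% of all protein-coding genes. Cuticle collagens had 3 of 177 (1.69%), namely col-185 (309), col-181 (104.3) and ram-2 (72.6). The list of hedgehog-related and patched-related genes counted 1 of 85 (1.18%; ptc-3, 116), and junction genes had 1 of 37 (2.70%; let-805, 85.4). Of these summits, that of col-185 passed in both replicates, that of col-181 in replicate 1 only, and those of ram-2, ptc-3 and let-805 in neither. The summits of col-181 and ram-2 lay downstream of the 5′ end. A palindrome summit chosen after its value was seen lay 2155 bp upstream of bli-4, for a protease that processes cuticle collagens, at 223 (126.3 in replicate 1 and 103 in replicate 2).

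Nuclear hormone receptor genes had the most, 22 of 274 (8.03%). After nhr-88 they were led by nhr-14 (879; 477 in replicate 1 and 398 in replicate 2), nhr-286 (442; 255.5 in replicate 1 and 189 in replicate 2) and nhr-70 (337; 192 in replicate 1 and 138 in replicate 2), all in both replicates' lists. Homeobox genes had 4 of 93: ceh-43 of the Distal-less type (272), alr-1 of the aristaless type (209, with the palindrome printed above, 11556 bp upstream), the labial-type Hox gene ceh-13 (124) and ceh-45 (86.7). The summit of ceh-45 was in neither replicate's list, and the others given were in both. Insulin-like and neuropeptide genes had 4 of 140, with ins-13 (1018) and nlp-40 (824) far above flp-19 (89.96) and flp-8 (84.1). Those of ins-13 and nlp-40 passed in both replicates, that of flp-19 in replicate 2 only and that of flp-8 in neither. In lists of other cell types there were 0 of 21 muscle genes, 0 of 21 intestine genes and 1 of 22 neuron genes (snt-1, for synaptotagmin, 105). Chemoreceptor genes had 6 of 1309, led by str-166 (307) and str-118 (218), C-type lectins 0 of 240, F-box genes 1 of 322 (fbxa-141, 142) and ribosomal protein genes 1 of 78 (rpl-31, 1012). The fbxa-141 summit passed in replicate 1 only. Not all of these summits lay upstream: those of nhr-286, ceh-13, ceh-45, ins-13, nlp-40, snt-1, fbxa-141 and rpl-31 lay downstream of the 5′ end. The genes with the most summits were brp-1 and M163.1 with 5 each and mdl-1 with 4, and those of M163.1 scored 667, 573, 207, 194 and 31.8, the 573 with the palindrome.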

How the data were processed

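Peak lists were deposited for each of the 2 replicates and for the pooled replicates on the build ce11, per the labels; no aligner, peak caller or filter is named there. Per the file headers and the labels no control library was part of these files, and it was not analysed here. The signal value of a peak is a score made by the authors, deposited with each list, and served here for ranking and description only. The replicate values given for a summit are those of the highest overlapping peak (at least 1 bp) in the replicate's ranked list. The pooled ranked tables, with 16 more columns, were left unused.

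Summits were placed with Ensembl release 115 genes, and motifs were searched on both strands of WBcel235 in windows of 201 bp, with windows of equal width centred 500 bp away as flanks. Counts were compared by Fisher's exact test (two-sided, p adjusted after Benjamini and Hochberg over each family of tests), in Python 3.11.15 with numpy 2.4.6, SciPy 1.17.1 and matplotlib 3.10.9; the 8-mer search was tested on simulated data. Peaks next to each other and overlapping windows are not independent, and depth is unknown. The members, the 10 motifs and the 15 gene lists were chosen with earlier results of these data known. Named were the 12 highest summits, the highest of each chromosome, the 6 highest with the palindrome, the 3 farthest from a 5′ end, the summits of the 3 fullest gaps and up to 4 genes of each list; for the epidermal and molting lists all 5 genes with a summit are named, a choice made after their values were seen; repeated sequence was examined after the data were seen. Sequences from chromosome I are not reported here.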

Additional observations from a re-analysis of the deposited data

How the results depend on the processing

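Of 81 values from 8 results under 15 alternatives, 63 kept their direction and their side of the threshold, or lay within 1.5 times for counts. One alternative, leaving out peaks in repeated sequence, was added after the data were seen, and under it all 8 did so. The number of intergenic summits was 312 to 352 in the replicates' own lists and 251 in the higher-scoring 1235 peaks. The odds of being in both replicates' lists, relative to all other peaks, were 0.887 in the pooled list and 1.04 in the higher-scoring peaks. The odds of exceeding the median signal were 0.854 in the pooled list, 1.02 to 1.03 in the replicates' lists and 1.01 in the higher-scoring peaks; none of these passed. The palindrome's odds ratio against promoter summits was 1.68 with the conservative list and 1.51 with a promoter window of 2000 bp, neither past the threshold. That of AGACGCAG was 1.57 in the higher-scoring peaks (exact p = 0.0229), 0.949 with the 2000 bp window and 0.954 with 50 bp to either side. The 8-mers called numbered 454 in the pooled list, 227 to 272 in the replicates' lists, 161 in the higher-scoring peaks, 775 and 167 with promoter windows of 500 and 2000 bp, and 155 with 50 bp to either side; the windows then differ in number or width. Against flanks, the palindrome's odds ratio was 16.4 to 51.4 and passed in all alternatives run. No paired analysis was possible because there is 1 group. The unknown number of reads limits what can be said of low peaks.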

Other observations

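Seen from the genome, AACCGGTT sites were counted by whether a GRH-1 summit lay within 100 bp. Of 211 sites in intergenic DNA that meets the position rule 27 were near a summit (12.8%, 8.95 to 17.98), against 13.5% of 303 promoter sites (two-sided Fisher's exact p = 0.895), 9.09% of 253 intronic sites (exact p = 0.230) and 1.79% of 223 sites elsewhere in genes (odds ratio 8.03, exact p = 6.74e-06). These tests were chosen after the data were seen and are not adjusted.

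Summits sharing a sequence also occurred lower in the list: 40 intergenic summits in 16 sets had at least 10 words of 20 bases in common with another, most of them pairs. On the autosomes, the central part of each chromosome, of the same length as either end part, held 28.0 intergenic summits per Mb of qualifying sequence and the outer parts 21.3. Another pooled summit lay within 500 bp of 59 intergenic summits (11.0%), against 8.003% of promoter summits, 11.03% of intronic summits and 9.68% of all pooled summits. None lay within 5000 bp of 254 (47.5%), against 60.1% of promoter summits, 44.4% of intronic summits and 53.7% of all pooled summits.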
